A study of Mus musculus with 2 samples.

Results

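The nuclear genes for subunits of the mitochondrial respiratory chain were followed, complex by complex, in eye cups of mice at postnatal day 13. An eye cup consists of retina, pigment epithelium, choroid and sclera, without cornea and lens. Members were the probe sets with 1 gene symbol in the platform annotation, where that symbol names a subunit of NADH dehydrogenase (complex I), succinate dehydrogenase (II), the cytochrome bc1 complex (III), cytochrome c oxidase (IV) or ATP synthase (V). Assembly factors and 3 muscle forms of cytochrome c oxidase were left out of the members. The choice used names only and no measured value, but it was made with earlier results of these data known. Among the left-out muscle forms, Cox8b was lower by 1.57-fold on the knockout-labelled array. No alternative set of members put these 3 forms back. The choice gave 80 genes of the 18194 on the array with a symbol of their own. Of the 80, 77 reached the floor described next.

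Samples fell into 2 groups of 1 array each. The wild-type array held RNA pooled in equal amounts from 6 wild-type animals, and the other held RNA pooled the same way from 6 Mfsd2a KO animals. Mfsd2a encodes a membrane transporter of lysophosphatidylcholine that carries docosahexaenoic acid. The part of the gene that is deleted, the strain and the sexes of the animals are not given in the sources used here. Each value is an RMA intensity on a linear scale from an Affymetrix mouse expression array, a type that reads transcripts mostly near their 3' ends. Differences are log2 of the knockout-labelled value minus log2 of the wild-type value, and each gene took its brightest probe set. A gene counted as measured when it reached the median of either array (94.2 in wild type, 93.4 in the other), which 11569 genes did. With 1 pool per genotype there is no spread between animals, so no gene was tested and no p-value is given.

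Mfsd2a itself gave an intensity of 181 (wild type) and 244 (the other pool), against the direction that a knockout label gives. Where its probes lie relative to the deletion was not analysed here, so "the array labelled knockout" is the name used for that pool. Markers of the labelled tissue were present on both arrays: the rod gene Gnat1 read 16823 and 15928, and Rpe65 of the pigment epithelium read 3484 and 3301. The 4 corneal genes looked up were lower on the array labelled knockout (median -0.45), and 3 of 5 measured lens genes were higher (median 0.039). What the pools owe to dissection, array handling or genotype cannot be told apart.

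Complexes I to IV pass electrons from NADH and succinate to oxygen, and complexes I, III and IV pump protons out of the mitochondrial matrix as they do so. Complex V lets the protons flow back and makes ATP. Photoreceptors pack mitochondria densely into their inner segments and are among the heaviest users of oxygen in the body, which makes these genes abundant in the retina. A few subunits are made from mitochondrial DNA and the rest from nuclear genes, and the sets must be assembled together.

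Across the chain the arrays were close to equal. Of the 77 measured members 0 were higher by 1.2-fold or more on the array labelled knockout and 0 were lower by that much, where 1.79% and 1.17% of all measured genes were. At the smaller size of 1.1-fold, 1 member (Ndufa4l2) was higher and 0 were lower, against 9.83% and 6.60% of all measured genes. No member reached 1.3-fold (0.640% of all measured genes higher, 0.311% lower) or 1.5-fold (0.138% higher). The median log2 difference of the members was -0.0046, beside 0.014 for all measured genes. The members ran from -0.14 (Atp5k) to 0.26 (Ndufa4l2), with an interquartile range of 0.047 where that of all measured genes was 0.12.

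Most members are brightly read, and bright probe sets differ less between arrays. For that reason the members were also set beside the 2967 genes at or above the 90th percentile of either array. Of the 77 members, 72 reached that level. Above it the 2967 genes were not matched to the members in brightness, so a gap in brightness may remain. Among those bright genes 0.741% were higher by 1.2-fold or more and 0.775% lower. The median size of a difference, whatever its sign, was 0.025 for the members, 0.048 for the bright genes and 0.060 for all measured genes. Probe sets of the same member gave a measure of technical spread. Over 43 members for which 2 or more probe sets passed the floor, the SD of their differences was 0.070. A dim Ndufa12 probe set at -0.49, far from the others of its gene, widens this SD. An SD without that gene was not computed, and a smaller one would leave more members outside it. Differences of 67 of the 77 members (87.0%) were smaller than 0.070, against 56.4% of all measured genes and 67.5% of the bright ones. The other 10 members were Ndufa7, Ndufs8, Ndufv1, Ndufa4l2, Cox7c, Cox8c, Atp5k, Atp5j2, Atp5l and Atp5pb.

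**Figure D1:**
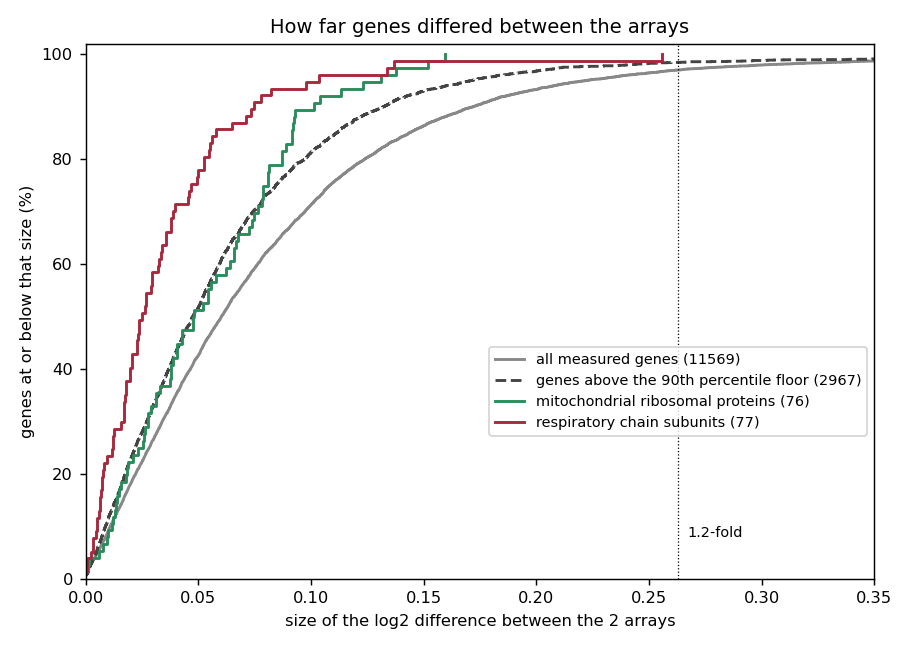
Cumulative share of genes (vertical axis, percent) by the size of their log2 difference between the 2 arrays (horizontal axis), for respiratory chain subunits, mitochondrial ribosomal proteins, genes above the 90th percentile floor and all measured genes. The curve of the 77 subunits climbs first, with a median size of 0.025, and the dotted line marks 1.2-fold, which 0 of them passed.

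By sign, 34 members were above 0 and 43 (55.8%) were below, where 42.4% of all measured genes were below 0. This split moves with the scaling, because the differences are so small: 49 members were below 0 after loess correction of the differences for level, and 54 once the median of all genes was subtracted. Hybridisation spike-ins, transcripts of bacterial and bacteriophage genes added in fixed amounts, had a median difference of 0.099 over 18 probe sets. That is larger in size than the difference of all members but 4 (Ndufa4l2, Cox7c, Cox8c and Atp5k), and its part in the sign of the members was not tested.

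**Figure D2:**
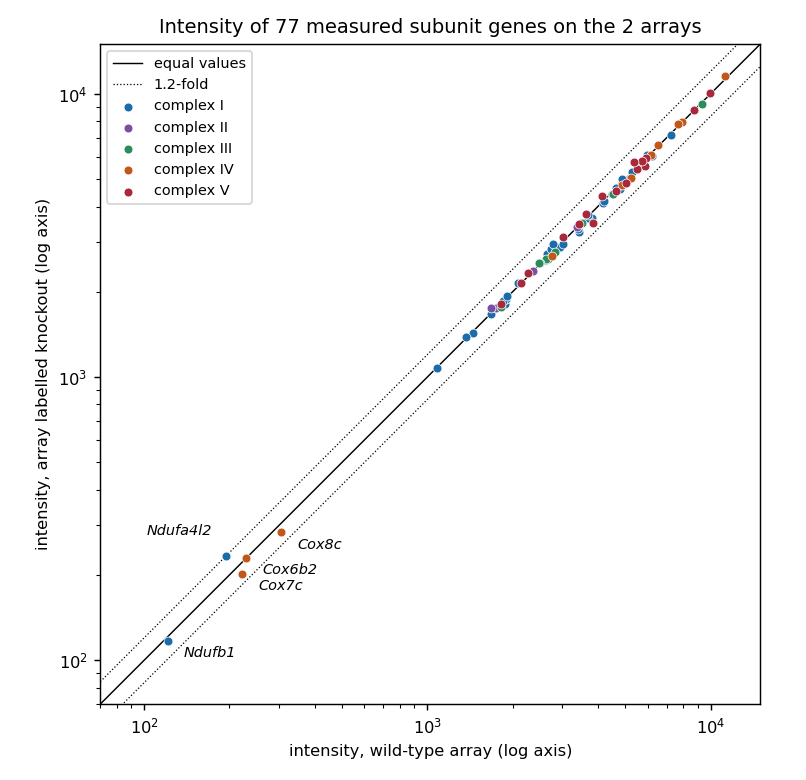
Intensity of each of the 77 measured subunit genes in wild type (horizontal, log axis) and on the array labelled knockout (vertical, log axis), coloured by complex. All points lie between the dotted lines of 1.2-fold on either side of equality, and the dimmest members, such as Ndufb1 and Ndufa4l2, are named.

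Upstream sequence of some members is shown because genes of this group are known for shared control by the transcription factors NRF1, GABP and YY1. Whether the motifs bear on the size of the differences was not tested. RefSeq promoters (GRCm38.p6, 250 bases before to 50 after the start site) matched 65 of the 80 members, through 70 promoters. The NRF1 core GCATGCGC, read on both strands like the other motifs, stood in 12.9% of the members' promoters and in 2.71% of all 32851 promoters of that length. The longer NRF1 motif, which is the core with GC added at its 5' end and reads the same on both strands, stood in 5.71% and 0.971%. The GABP motif CCGGAAG stood in 24.3% and 8.86%, and the YY1 motif AAGATGGC in 12.9% and 2.75%. In all, 29 of the 65 matched members held at least 1 of these motifs and 36 held none.

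The stretches below end at the base before the start site and run 5' to 3' on the gene's strand, with the motifs in capitals. They were picked from the members that hold a motif upstream of the start. Other such members, among them Atp5h (0.020) and Cox6b1 (-0.029), are not shown, so the signs of those shown do not stand for the group. Among those shown only Atp5k (-0.14) lies below 0, while Atp5g2 (0.050), Cox6a1 (0.045), Sdhd (0.056) and Atp5j (0.023) lie above. Atp5k and Cox6a1 both hold the longer NRF1 motif.
Atp5k, chr5:108434400-108434469, minus strand: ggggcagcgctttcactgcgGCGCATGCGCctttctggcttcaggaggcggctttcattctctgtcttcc
Atp5g2, chr15:102671048-102671117, minus strand: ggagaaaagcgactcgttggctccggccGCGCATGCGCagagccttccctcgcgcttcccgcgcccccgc
Cox6a1, chr5:115348959-115349128, minus strand: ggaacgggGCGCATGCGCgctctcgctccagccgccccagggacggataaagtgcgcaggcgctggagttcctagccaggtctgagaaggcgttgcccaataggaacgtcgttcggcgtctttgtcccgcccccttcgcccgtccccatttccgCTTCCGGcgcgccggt
Sdhd, chr9:50603850-50603919, minus strand: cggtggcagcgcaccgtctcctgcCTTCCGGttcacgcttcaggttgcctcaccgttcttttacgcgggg
Atp5j, chr16:84834977-84835076, minus strand: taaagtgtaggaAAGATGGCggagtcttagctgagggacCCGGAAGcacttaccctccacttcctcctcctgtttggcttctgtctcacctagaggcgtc
Capitals mark the longer NRF1 motif in the first 3 sequences, the reverse strand of the GABP motif (CTTCCGG) in Cox6a1 and Sdhd, and the YY1 motif followed by the GABP motif in Atp5j. Members with the NRF1 core lay on both sides of 0, with 5 above and 4 below and a range of -0.14 to 0.074. Those with the GABP motif were split 8 above and 9 below, and those with the YY1 motif 4 above and 5 below. Of the factors' own genes, Nrf1 read 214 and 191 (-0.16), past the 1.1-fold size on the lower side, with probe sets from -0.26 to 0.074. Gabpa read 653 and 690 (0.079), with probe sets from -0.12 to 0.079. Yy1 read 1318 and 1345 (0.030), with probe sets from 0.0069 to 0.26.

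Complex I, the entry point for electrons from NADH, had 35 measured members of 36, with 13 above 0 and 22 below. Its median was -0.012, and apart from Ndufa4l2 its members ran from -0.075 to 0.082. In the matrix arm, which binds NADH and holds the flavin and the iron-sulphur clusters, 7 of 14 members were above 0 and 7 below, with a median of 0.00031. Ndufv1, the subunit that binds NADH and the flavin, read 2783 in wild type and 2946 on the array labelled knockout, a difference of 0.082. Its other probe sets lay on the same side, and the 3 ran from 0.049 to 0.11.

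Its partner Ndufv2, which carries an iron-sulphur cluster, read 3699 and 3638 (-0.024), but its other probe sets differed by 0.028 and 0.082. Ndufs1, the largest subunit of the arm, read 1452 and 1435 (-0.017). In their brightest probe sets Ndufv1, Ndufv2 and Ndufs1, of the NADH-oxidising tip, had no common direction. The sign of Ndufv2 depends on the probe set. Ndufs3, a core subunit near the quinone site, read 2749 and 2811 (0.033). Ndufs7, which carries the last cluster before ubiquinone, read 1853 and 1860 (0.0053). Ndufs8, another cluster carrier, was among the lowest members of complex I at 3830 and 3646 (-0.071), and its 6 probe sets ran from -0.085 to 0.0034.

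Ndufa7, an accessory subunit of the same arm, was the lowest of complex I. It read 3436 and 3262 (-0.075), and all 5 of its probe sets were below 0, from -0.12 to -0.022. Ndufa12 showed how far probe sets of a gene can part. The brightest read 5299 and 5282 (-0.0046), 2 more lay within 0.0051 of 0 either way, and the dimmest read 384 and 274, a difference of -0.49. That probe set was 1 of 2 among the 145 member probe sets above the floor that differed by at least 1.2-fold, both downward. The share over all probe sets above the floor was not computed. When each gene took its probe set of largest difference, 2 of 68 members were lower by 1.2-fold, beside 193 of 9174 measured genes. In that setting 0 members were higher, beside 324 of the 9174.

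In the membrane arm, which pumps protons, 14 of 18 measured members were below 0 and 4 above. Their median was -0.018, and they ran from -0.058 to 0.046. Ndufa3 was the lowest at 4784 and 4596 (-0.058). Ndufa8 read 1879 and 1812 (-0.053). Ndufb2 was the highest in this arm at 2645 and 2730 (0.046), although its 2 other probe sets above the floor differed by -0.061 and -0.12, so its sign depends on the probe set. Ndufb11, an X-linked subunit, read 7260 and 7161 (-0.020).

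Ndufab1, the mitochondrial acyl carrier protein, sits in both arms and also serves mitochondrial fatty acid synthesis. It read 2732 and 2838 (0.055), while its 4 other probe sets, all dim, ran from -0.10 to 0.25. Ndufb4 stayed under the floor at 43.3 and 41.4 and was not counted.

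Ndufa4l2, a paralogue of Ndufa4 that is known to be induced by low oxygen, stood apart from the rest of the group. Its 1 probe set read 195 in wild type and 233 on the array labelled knockout, a difference of 0.26 or 1.19-fold, just under the size of 1.2-fold. It is a dim member, and the next in order in complex I is Ndufv1 at 0.082. Ndufa4 itself, now known as a subunit of cytochrome c oxidase, read 6201 and 6040 (-0.038).

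**Figure D3:**
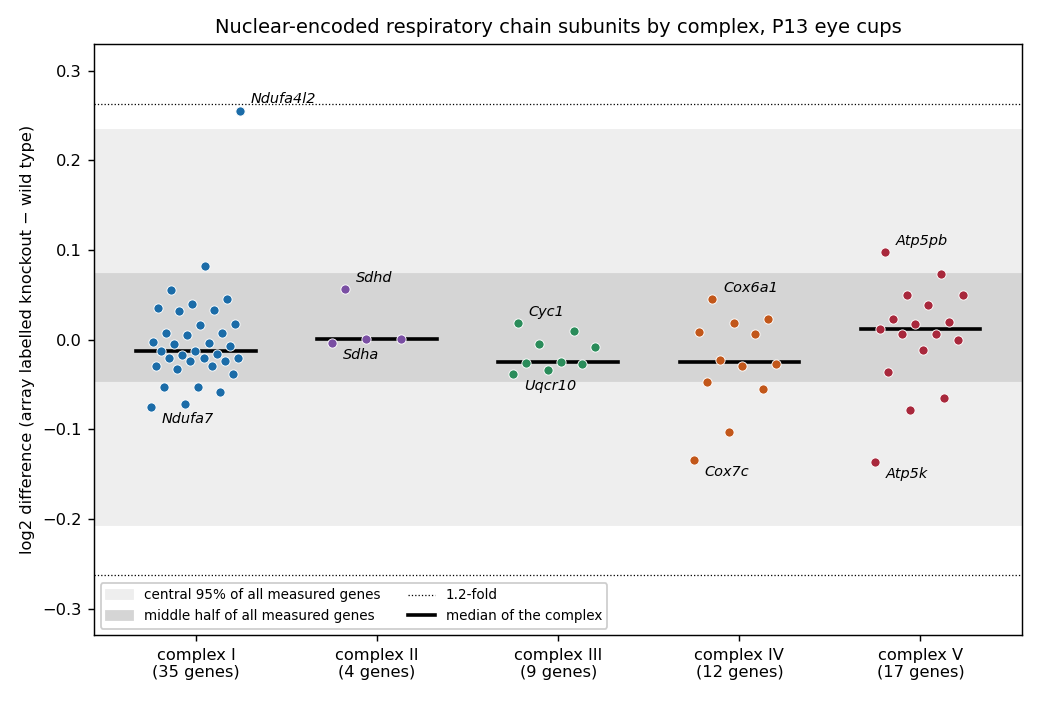
Log2 difference (array labelled knockout minus wild type) of each measured subunit gene, by complex, with the median of the complex as a black line. Light and dark grey bands give the central 95% and the interquartile range of all measured genes, and dotted lines mark 1.2-fold; Ndufa4l2 at 0.26 is the only member outside the light band.

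Complex II, or succinate dehydrogenase, belongs to both the citric acid cycle and the chain and is made wholly from nuclear genes. All 4 members were measured, with a median of 0.00069. Sdha, the flavin subunit that oxidises succinate, read 3385 and 3377 (-0.0034). Dimmer probe sets of Sdha above the floor differed by -0.070 and -0.056. Sdhb, with its iron-sulphur clusters, read 2359 and 2360 (0.00061) in its 1 probe set. The brightest probe sets of the catalytic head were thus nearly equal on the arrays. The membrane anchor Sdhc read 1753 and 1754 (0.00077), and its other probe set differed by -0.084. Its partner Sdhd read 1682 and 1749 (0.056), and a dimmer probe set of Sdhd, at 180 and 205, differed by 0.18.

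Complex III, which passes electrons from ubiquinol to cytochrome c, had 9 members, with 2 above 0 and 7 below and a median of -0.025. All of them lay between -0.038 and 0.018. The redox subunits were near 0: Uqcrfs1, the Rieske iron-sulphur protein, read 2631 and 2616 (-0.0078). Cyc1, cytochrome c1, was the highest of the complex at 2487 and 2518 (0.018). The core proteins Uqcrc1 (-0.0052) and Uqcrc2 (0.0095) were likewise close to 0.

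The 5 small subunits of complex III were all below 0, from -0.038 to -0.025. Uqcr10 was the lowest, at 1816 and 1769 (-0.038). Its dimmer probe sets went further: one read 257 and 229 (-0.17), the other 303 and 251 (-0.27), and the latter is the second of the member probe sets past 1.2-fold. Uqcrq, next in order, read 2823 and 2758 (-0.034), with 4 probe sets from -0.082 to 0.092, of which only the brightest passed the floor. Uqcrb read 9341 and 9171 (-0.026), and its other probe set differed by 0.057. With dim probe sets included, only some of the small subunits kept their sign, and above the floor only Uqcrb had both signs.

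Complex IV, cytochrome c oxidase, hands electrons to oxygen. Of its 14 members 12 were measured, 5 above 0 and 7 below, with a median of -0.025. Several of its subunits come in forms for particular tissues, and the common forms had a median of -0.023 over 9 genes. Cox4i1, the usual form of subunit 4, read 7682 and 7808 (0.023). The form Cox4i2, known from lung and from cells in low oxygen, read 88.1 on both arrays, under the floor. Cox6a1 was the highest at 11242 and 11601 (0.045), and its other probe set gave nearly the same difference (0.046).

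Cox6c read 6529 and 6611 (0.018), with a second probe set at 0.12. Cox5a read 5248 and 5052 (-0.055) in its brightest probe set, but 0.093 and 0.10 in the others, which are bright as well. Its direction therefore rests on the probe set taken. Cox5b, its neighbour in name, read 7922 and 7967 (0.0081), and its 6 probe sets stayed between -0.014 and 0.059. Cox7c was the lowest of complex IV at 221 and 201 (-0.13), from the only probe set of the gene above the floor.

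Cox7a2 (6185 and 6087, -0.023) and its relative Cox7a2l (2758 and 2670, -0.047), which helps join complexes III and IV into supercomplexes, lay below 0 in their brightest probe sets. The other Cox7a2l probe sets differed by 0.015 and 0.023, so the sign of that gene depends on the probe set. Cox6b1 read 4864 and 4767 (-0.029). Forms known from testis were dim or under the floor. Cox6b2 read 229 and 230 (0.0059) and Cox8c 304 and 283 (-0.10), with a second Cox8c probe set at -0.22. Cox7b2 was under the floor at 13.2 and 15.6.

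The 3 muscle and heart forms of complex IV, not counted as members, were all below 0. Cox8b read 687 in wild type and 439 on the array labelled knockout (-0.65, or 1.57-fold), where 0.0864% of all measured genes were lower by 1.5-fold or more. Its common counterpart Cox8a read 5554 and 5451 (-0.027). Cox6a2 read 117 and 104 (-0.16) beside 0.045 for Cox6a1, and a dim second Cox6a2 probe set, under the floor, differed by 0.30. Cox7a1 read 101 and 98.3 (-0.044) beside -0.023 for Cox7a2. The gap between muscle and common form was widest for Cox8b.

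Skeletal muscle markers were mostly lower in the same pool. Of 15 listed genes 11 were measured, 8 below 0 and 3 above, with a median of -0.20, and Myh2, Myh4, Actn3 and Ryr1 were under the floor on both arrays. The summed level of the 15 was 4602 in wild type and 4212 on the array labelled knockout. Ckm, the muscle creatine kinase, read 229 and 181 (-0.34), while Myh1, a fast myosin, read 492 and 572 (0.22). Slow and heart-type markers had 2 of 4 measured genes on each side, and their sum was 863 and 862. Of 7 brown fat markers read, Ucp1, Cidea, Elovl3 and Plin5 were under the floor, and the 3 measured ones, Ppara (-0.11), Dio2 (-0.11) and Fabp3 (-0.15), were below 0. The summed level of the 7 was 1953 and 1799. The part of muscle or fat tissue in the difference of Cox8b was not tested. In bulk tissue fewer cells of a type and less RNA per cell cannot be told apart.

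**Figure D4:**
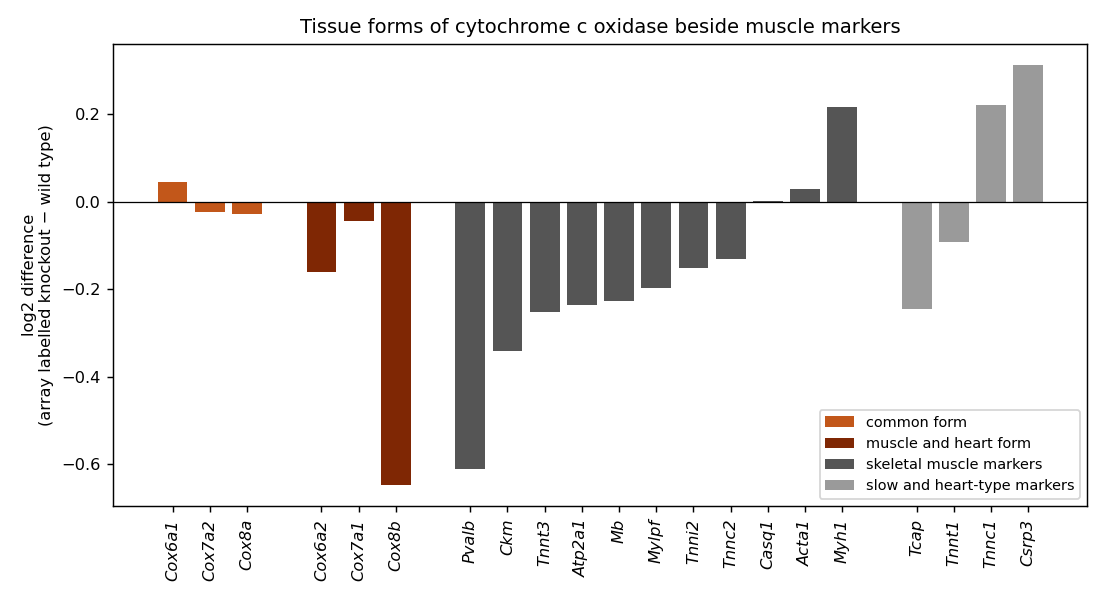
Log2 difference (array labelled knockout minus wild type) of the common and the muscle and heart forms of 3 cytochrome c oxidase subunits, beside the measured markers of skeletal muscle and of slow and heart-type muscle. Bars start at 0, each is 1 gene on 1 array per genotype, and Cox8b (-0.65) and Pvalb (-0.61) reach lowest.

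Complex V, the ATP synthase, had more members above 0 than below, 11 against 6 of 17, with a median of 0.012. That median is close to the 0.014 of all measured genes, and it was -0.0019 once the latter was subtracted. Atp5a1, the alpha subunit, read 5909 and 5936 (0.0066). Atp5b, the beta subunit that holds the catalytic sites, read 9937 and 10059 (0.018). In the central stalk, Atp5c1 (gamma) read 5486 and 5440 (-0.012), Atp5d (delta) was at -0.065 and Atp5e (epsilon) at 0.039.

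The c ring, which turns as protons pass, is encoded by 3 genes that give the same mature protein. Atp5g1 read 2142 and 2151 (0.0064), Atp5g2 3020 and 3127 (0.050), and Atp5g3 8711 and 8785 (0.012). All 4 genes of the peripheral stalk, which keeps the head from turning, were above 0, with a median of 0.036. Atp5pb, subunit b of the stalk, was the highest of the complex at 5357 and 5733 (0.098), while its second probe set gave 0.038. Atp5o read 3641 and 3769 (0.050) and 0.13 in a dimmer probe set. The lowest of the 4 was Atp5h (0.020).

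Small membrane subunits of the synthase, which hold its dimers and shape the cristae, had 1 of 5 above 0 and a median of -0.036. Atp5k, subunit e, was the lowest of all members. It read 3835 and 3488 (-0.14), but the 2 other probe sets, nearly as bright, differed by -0.046 and -0.076. All of its probe sets were below 0. Atp5j2, subunit f, read 5881 and 5571 (-0.078), with 3 probe sets from -0.082 to -0.039. In contrast Atp5l, subunit g, read 4139 and 4355 (0.074) in its 1 probe set. The stalk and these subunits were grouped by structure, and whether the groups differ was not tested.

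**Figure D5:**
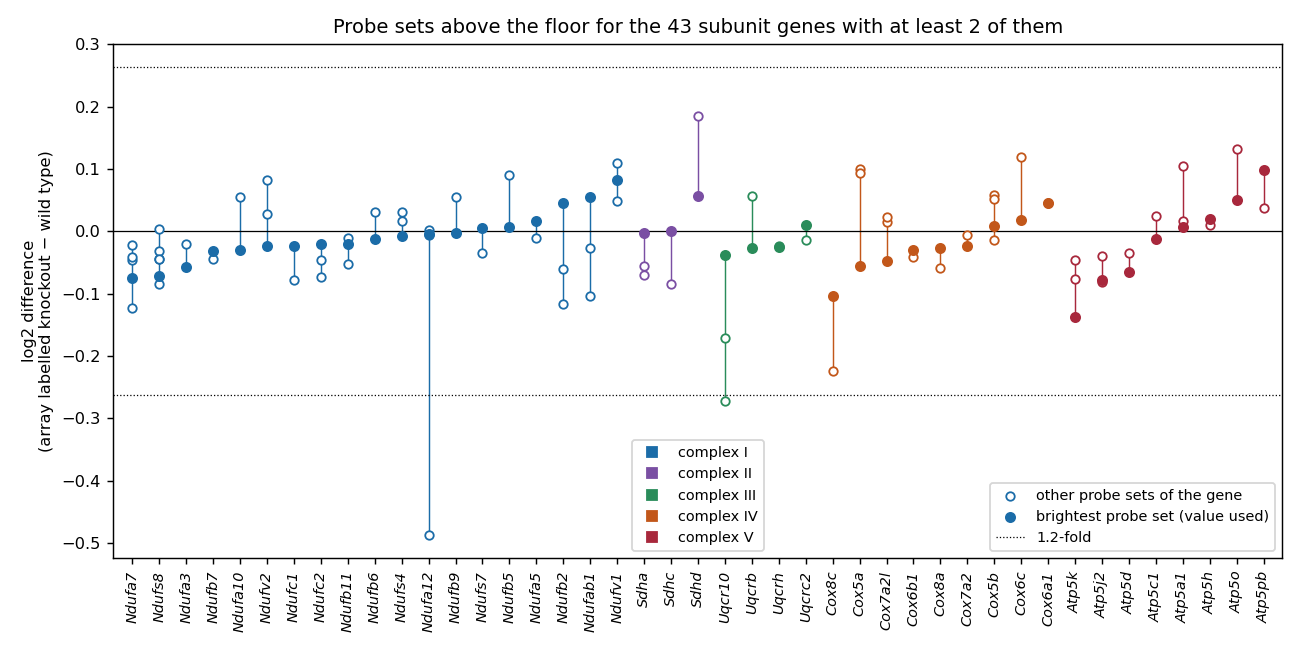
Log2 difference (array labelled knockout minus wild type) of each probe set above the floor, for the 43 subunit genes that have 2 or more; the filled point is the brightest probe set, whose value was used. Probe sets of 18 genes lie on both sides of 0, and those of Ndufa12 (-0.49) and Uqcr10 (-0.27) reach past the dotted line of 1.2-fold.

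The sign of a member was also compared between its probe sets. Among the 43 members read by several probe sets above the floor, 16 had all of them below 0, 9 had all above 0 and 18 had both signs. Ndufv1, Atp5o, Atp5pb and Sdhd were among those wholly above 0. Ndufa7, Uqcr10, Cox8a, Atp5d, Atp5j2 and Atp5k were among those wholly below. Atp5a1 and Ndufb5, above 0 in every probe set over the floor, were at -0.0077 and -0.0069 once the median of all genes was subtracted. With so few probe sets per gene some can share a sign by chance, and all of them read the same RNA, so these counts say nothing of other animals.

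Other genes of the same organelle came from lists written from general knowledge. Each is given by its brightest probe set, and some of those named below have other probe sets of the opposite sign. Sdhaf3 ran from -0.16 to 0.18 over its probe sets and Timm50 from -0.30 to 0.13. Slc25a4 ran from -0.074 to 0.13, Polrmt from -0.040 to 0.17, Ppargc1a from -0.15 to 0.018 and Cycs from -0.17 to 0.0080. The 1 mitochondrially encoded subunit read, ND5 of complex I, gave 8432 and 8364 (-0.012), near its nuclear partners. Assembly factors, which build the complexes and do not stay in them, had no gene past 1.2-fold by its brightest probe set in any of the lists. For complex I, 8 of 15 were above 0 (median 0.0030), from Ndufaf7 (-0.098) to Acad9 (0.16). For complex II, 3 of 4 were below 0 (median -0.054), from Sdhaf3 (-0.16) to Sdhaf2 (0.023). For complex III, 3 of 5 were above 0 (0.021), from Uqcc2 (-0.080) to Ttc19 (0.13).

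Complex IV assembly had 10 of 19 above 0 (median 0.0042), from Cox19 (-0.14) to Sco2 (0.12), both involved in bringing copper to the oxidase. Among the 4 genes of complex V assembly and inhibition 3 were above 0 (0.031), with Atpif1, the inhibitor of the synthase running in reverse, at 0.082 and the assembly factor Atpaf1 at -0.080. Electron carriers and side entries to the chain had 9 of 17 above 0 (0.0021). Cycs, cytochrome c itself, read 3093 and 3110 (0.0080). Etfb, a subunit of the flavoprotein that brings electrons from fatty acid oxidation, was the lowest gene of these lists at 682 and 570 (-0.26), just short of 1.2-fold, and Coq8b was the highest carrier gene (0.16).

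Citric acid cycle genes had 12 of 16 above 0 and a median of 0.035, from Pdha1 (-0.078) to Cs, citrate synthase (0.098). Regulators of mitochondrial number had 12 of 18 above 0 (0.016), with Nrf1 lowest (-0.16) and Polrmt, the mitochondrial RNA polymerase, highest (0.17). Ppargc1a, the coactivator that drives mitochondrial biogenesis, read 906 and 917 (0.018). Mitochondrial ribosomal proteins had 48 of 76 above 0, 27 below and 1 at 0, with a median of 0.026 and a range from Mrpl34 (-0.15) to Mrps28 (0.16). These shares stand beside the 55.8% of all measured genes that were above 0.

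Protein import genes had 13 of 21 above 0 (0.0077), from Timm50 (-0.12) to Tomm40 (0.095). Genes of the cristae were split 5 and 5 (0.0010), from Apool (-0.076) to Chchd6 (0.080). ADP/ATP, phosphate and outer membrane carriers had 4 of 6 below 0 (-0.019), from Slc25a4 (-0.074) to Vdac3 (0.050). In none of these lists did a gene reach 1.2-fold in either direction by its brightest probe set.

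Rods, the most numerous cells of the mouse retina and rich in mitochondria, were read through 9 of the 11 marker genes listed. Of these 7 were below 0 and 2 above, with a median of -0.027 and a summed level of 84560 in wild type and 83167 on the array labelled knockout. The lowest was Pde6a (-0.14) and the highest Sag (0.034). Pigment epithelium markers had 5 of 6 measured genes below 0, with a median of -0.19 (-0.078 over all 7 with no floor) and sums of 34421 and 32591 over the 7. Rgr (-0.30), Lrat (-0.31) and Rdh5 (-0.34), all of the visual cycle, were lower by 1.2-fold or more, which is 3 of 6 measured beside 1.17% of all measured genes, and Ttr was the highest (0.019). No rod marker was under the floor. The part of cell composition in the values of the respiratory chain genes was not tested.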

How the data were processed

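Total RNA of 2 eye cup pools was hybridised to 1 array each. The authors deposited linear intensities, 1 per array and probe set (45101 in all). Partek 6.6 and RMA made these values, per the submitters' processing notes; order and settings are not given in the sources used here. RMA by design brings the arrays to a common distribution, which can hide an overall difference; the deposited medians were 94.4 and 93.6. Of the probe sets, 34958 carried 1 gene symbol, 932 several and 9211 none.

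Log2 values were computed in Python 3.11.15 (numpy 2.4.6; statsmodels 0.14.6 for loess). For each gene the brightest probe set was used, by mean intensity over both arrays. The floor was each array's median over all but 64 control probe sets. Symbols starting with Sdhaf were read as assembly factors, not members. Of the members, every one may be named; full values go to catalytic subunits, the 2 highest and 2 lowest of each complex, tissue forms, and the highest and lowest of each other list. For most of the last only the difference is printed, and some marker lists are named in part. Cox5b, Cox6c, Cox7a2l, Ndufb11 and other members beyond these were named after their values were seen. Members, lists and sizes were chosen with earlier results of these data known. Counting was tested on simulated data. With 2 arrays their number limits the precision of every value.

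Alternatives were sizes of 1.1-, 1.3- and 1.5-fold, no floor, floors at the 70th and 90th percentiles, averaging the probe sets of a gene, the probe set with the largest difference, leaving out _s_at and _x_at probe sets, loess (span 0.3, 3 iterations), median subtraction and other sets of members. Choosing the brightest by mean log2 value and leaving out members under 500 were added after seeing the data.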

Additional observations from a re-analysis of the deposited data

How the results depend on the processing

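No paired analysis was possible because there is only 1 array per genotype, and no replicate could be left out. The counts of 0 members past 1.2-fold in either direction held with each floor, with the mean of probe sets and with each scaling. With the probe set of largest difference they became 2 lower of 68 (Ndufa12 and Uqcr10), beside 193 of 9174 measured genes. Without _s_at and _x_at probe sets they became 1 lower of 71 (Ndufa12), beside 135 of 11202. At 1.1-fold they became 1 higher, beside 9.83% of all measured genes. At 1.3-fold and 1.5-fold both counts were 0. The median of all members ran from -0.019 to 0.00061 over 12 alternatives and changed sign in 2. Over 10 alternatives each, complexes I (-0.027 to -0.0033) and III (-0.039 to -0.0078) stayed below 0, while II (-0.014 to 0.0053), IV (-0.039 to 0.0059) and V (-0.0019 to 0.020) crossed it. Of the 77 members 53 kept their sign in every alternative that gave them a value and 24 did not. Atp5k differed by -0.046 when the brightest probe set was chosen by mean log2 value. Over 9 alternatives the medians of citric acid cycle genes (0.021 to 0.055) and mitochondrial ribosomal proteins (0.0089 to 0.038) stayed above 0, while those of biogenesis, import, cristae, the ADP/ATP and related carriers, the electron carriers and the assembly factors of complexes I, III and IV crossed it. The cause of these changes was not tested.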

Other observations

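Probe sets that the annotation gives to a subunit together with a copy or another gene were not used in the counts above. For Ndufa11 and its copy Ndufa11b one such probe set read 2049 and 2035 (-0.010) and a dimmer one 108 and 101 (-0.099). The probe set for Ndufs6 and Ndufs6b read 1806 and 1756 (-0.040). Ndufb4, under the floor in its own probe set, shares 2 others with copies of the gene, at 2606 and 2576 (-0.016) and at 2606 and 2566 (-0.022). A probe set of Ndufs5 and its pseudogene read 3474 and 3503 (0.012). These are single intensities of the wild-type array and the array labelled knockout, with log2 differences in parentheses.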
